A study of Mus musculus with 8 samples.

Results

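The 10 genes described here, Serpinb2, Serpinb3a, Serpinb3b, Serpinb3c, Serpinb3d, Serpinb5, Serpinb7, Serpinb8, Serpinb12 and Serpinb13, encode protease inhibitors of serpin clade B and stand among 36799 genes and other targets on the array. They were found by matching the RefSeq accession of each probe to these symbols, and all 10 had a probe. The genes had been picked for their values in EED cKO against control epidermis, so that contrast is given for them as a description with no test. Expression was profiled in back skin epidermis of newborn C57BL/6 mice at P0, in 4 EED cKO and 4 control samples, to ask how loss of the Polycomb subunit EED changes expression in the skin. In EED cKO mice (K14-Cre; EED flox/flox), Cre recombinase driven by the keratin 14 promoter deletes Eed, a core subunit of the Polycomb repressive complex PRC2, in the epithelial cells of the skin and not in other cells of the sample. The labels give the genotype of the control mice as CTL only, without their alleles. Epidermis was separated from dermis with dispase and dissociated with trypsin, and 100 ng of total RNA per sample was labeled and hybridized against Universal Mouse Reference RNA, a purchased pool used as common reference throughout. In both genotypes, replicates 1 and 3 were labeled with Cy3 and replicates 2 and 4 with Cy5, and the reference took the other dye. Values are log2 ratios of sample over reference unless a spot signal is named, after background correction by normexp, a model of signal plus noise that keeps dim spots positive, and loess normalization of the dyes within each array. Genotypes were compared in a limma model that also held a dye term, and adjusted p-values are Benjamini-Hochberg values over all targets.

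Serpins are folded with an exposed reactive loop that a protease mistakes for a substrate. Cleavage of the loop springs it into the body of the serpin and locks the protease in a dead covalent complex. Clade B serpins lack a typical signal peptide and act mainly inside the cell, although several are also released. Some inhibit serine proteases, and some, called cross-class inhibitors, also inhibit papain-like cysteine proteases such as cathepsins. Many are made in stratified squamous epithelium, where proteases take part in cornification and in shedding of the outer layer.

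The mouse Serpinb genes lie in a run on chromosome 1 and a group on chromosome 13, and the 10 genes described here are all in the run on chromosome 1. The sequence before the start of each gene is shown because the 4 Serpinb3 genes, related copies that lie next to one another, were given different fold changes by their probes, a difference that was not tested. Of the 10 genes, 9 had an upstream window in the RefSeq table of build GRCm38.p6, and for Serpinb13 none was listed. The 250 bases upstream of the RefSeq start are given on the gene's own strand for Serpinb3a (chr1:107052304-107052553, minus strand), Serpinb3b (chr1:107161115-107161364, minus strand), Serpinb3c (chr1:107278372-107278621, minus strand), Serpinb3d (chr1:107083481-107083730, minus strand) and Serpinb2 (chr1:107511173-107511422, plus strand). Capitals mark the letters TATAAA, the core of a TATA box, and TGANTCA, a motif of AP-1 factors, on either strand.
Serpinb3a: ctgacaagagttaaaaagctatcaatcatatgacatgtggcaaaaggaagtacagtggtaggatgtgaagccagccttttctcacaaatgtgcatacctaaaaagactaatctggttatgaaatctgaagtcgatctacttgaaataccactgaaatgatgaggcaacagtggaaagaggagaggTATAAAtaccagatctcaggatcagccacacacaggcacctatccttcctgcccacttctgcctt
Serpinb3b: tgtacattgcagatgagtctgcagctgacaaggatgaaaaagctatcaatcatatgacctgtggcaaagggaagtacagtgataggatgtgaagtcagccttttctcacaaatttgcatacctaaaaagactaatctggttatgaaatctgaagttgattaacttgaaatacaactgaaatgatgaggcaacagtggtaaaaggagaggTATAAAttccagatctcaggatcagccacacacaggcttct
Serpinb3c: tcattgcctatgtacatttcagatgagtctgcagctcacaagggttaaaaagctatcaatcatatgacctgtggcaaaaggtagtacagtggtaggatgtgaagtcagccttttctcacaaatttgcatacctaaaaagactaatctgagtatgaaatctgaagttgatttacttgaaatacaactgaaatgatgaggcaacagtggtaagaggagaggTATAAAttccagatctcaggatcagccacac
Serpinb3d: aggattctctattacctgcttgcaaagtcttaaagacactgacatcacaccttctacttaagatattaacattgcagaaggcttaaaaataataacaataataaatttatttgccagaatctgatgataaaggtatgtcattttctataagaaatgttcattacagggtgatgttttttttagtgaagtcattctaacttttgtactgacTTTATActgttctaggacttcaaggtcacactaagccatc
Serpinb2: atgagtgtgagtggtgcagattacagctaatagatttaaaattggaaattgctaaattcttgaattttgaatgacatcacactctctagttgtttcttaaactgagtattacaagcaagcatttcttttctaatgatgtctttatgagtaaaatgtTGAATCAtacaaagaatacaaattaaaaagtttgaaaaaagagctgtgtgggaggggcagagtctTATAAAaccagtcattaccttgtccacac

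The upstream windows of Serpinb3a, Serpinb3b and Serpinb3c were 92.5% to 95.4% identical to one another over 216 to 240 aligned bases. The window of Serpinb3d was 64.7% identical to that of Serpinb3a, 64.8% to Serpinb3b and 56.0% to Serpinb3c, in the range of 51.8% to 68.7% seen between the windows of the other pairs. The RefSeq model of Serpinb3d begins with ATG, so its window ends at the base before that codon, and whether transcription starts there was not tested. TATAAA was present in the windows of 7 of the 9 genes (Serpinb2, Serpinb3a, Serpinb3b, Serpinb3c, Serpinb3d, Serpinb7 and Serpinb12), against 12.4% of the 32851 windows of the same length in the table. Counted from the start, it began at -65 in Serpinb3a, -41 in Serpinb3b, -31 in Serpinb3c and -29 in Serpinb2, and in Serpinb3d it lay at -40 on the opposite strand. TGANTCA was present in 5 of the 9 windows (Serpinb2, Serpinb5, Serpinb7, Serpinb8 and Serpinb12), against 6.75% of all windows. The windows of Serpinb2, Serpinb3b, Serpinb3c, Serpinb3d and Serpinb7 held no CG dinucleotide, that of Serpinb3a held 1, that of Serpinb8 held 2, that of Serpinb12 held 3 and that of Serpinb5 held 6. Serpinb2 and Serpinb12 had more than 1 window listed, and all counts by gene use the first. The later window held 3 CG dinucleotides in Serpinb2 and 0 in Serpinb12, and that of Serpinb12 had no TGANTCA. The median over all windows was 6, and 7.87% of them held none. A match to these letters is a description and not a binding site, and the near copies among the Serpinb3 windows are not separate observations.

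The targeted gene was checked first. Eed fell from -0.35 ± 0.13 (SD, n = 4) in control to -1.80 ± 0.17 in EED cKO epidermis, a log2 fold change of -1.46 ± 0.09 (SE, adjusted p = 2.13e-05, limma). Keratinocyte genes marked the samples as epidermis, with Krt14 at 2.98 ± 0.22 in control and 3.09 ± 0.27 in EED cKO samples and Krt10 at 3.38 ± 0.58 and 3.52 ± 0.57. Spots well above background in the sample channel made up 51.5% to 65.5% of each array, and none was saturated. RNA of Y-linked genes was well above background for 3 of 4 genes on control replicates 2 and 3, for 1 gene on EED cKO replicate 2 and for 0 on the others. All arrays were on 1 slide, with EED cKO arrays in one row and control arrays in the other, so genotype and row cannot be told apart.

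Targets were tested where the sample channel of a probe stood well above background on 3 or more arrays of either genotype. All 10 genes passed, and Serpinb13 alone missed 1 control array. In bulk RNA, more cells that make a transcript and more transcript per cell cannot be told apart. The mean log2 ratio was higher in EED cKO than in control epidermis for all 10 genes, apart from Serpinb3a with the log ratios of Feature Extraction, the software that reads the scans, or the deposited ratios, which are nearly the same values, and Serpinb5 with the sample channel alone. The median log2 fold change of the 10 was 0.52, beside 0.019 over all 23139 targets tested. Only Serpinb3d met both an adjusted p below 0.05 and a 2-fold change, which 255 targets, or 1.1% of those tested, met in the higher direction and 1.2% met in either direction. Of the 278 targets called in either direction 91.7% were higher, and 73.6% of those called after median centring in place of loess. An adjusted p below 0.05 at any size was reached in the higher direction by 7 of the 10 genes, against 11.8% of all targets, and in the lower direction by 0 genes, against 9.93%. For 6 of the 10 genes every EED cKO value exceeded every control value, against 9.67% of all targets. Because the genes were selected on this contrast, nothing is read from these counts. The plot of log2 ratios by array shows the values of each gene.

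**Figure D1:**
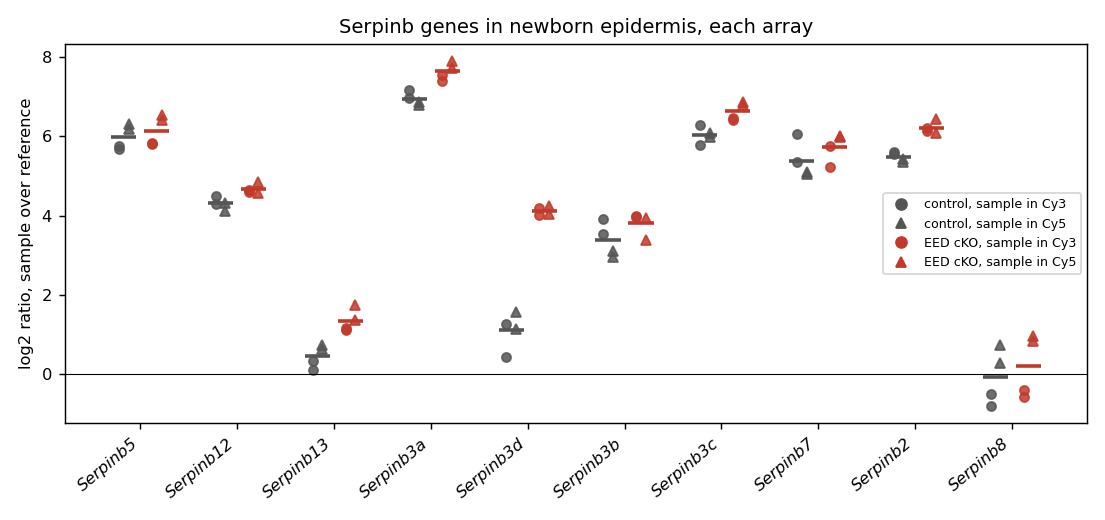
Log2 ratio of sample over reference (y axis) of the 10 Serpinb genes in the order of their places on chromosome 1 (x axis), with a point per array, control in grey and EED cKO in red, circles for samples in Cy3 and triangles for samples in Cy5, and bars for group means (n = 4). Serpinb3d moved from 1.11 to 4.12 on average, while Serpinb5, Serpinb3b, Serpinb7 and Serpinb8 overlapped between genotypes.

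The 4 Serpinb3 genes are the mouse counterparts of human SERPINB3 and SERPINB4, the squamous cell carcinoma antigens, which inhibit serine and cysteine proteases. Serpinb3d was at 1.28, 1.57, 0.45 and 1.15 on control replicates 1 to 4 and at 4.01, 4.25, 4.18 and 4.04 on EED cKO replicates 1 to 4. Every EED cKO array was far above every control array. The log2 fold change was 3.01 ± 0.18 (SE), or 8.06-fold, with 3.23 between the samples in Cy3 and 2.79 between those in Cy5.

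Serpinb3a was at 7.17, 6.86, 6.97 and 6.78 on the control arrays and at 7.39, 7.73, 7.55 and 7.89 on the EED cKO arrays, with a log2 fold change of 0.69 ± 0.12. The genotypes did not overlap, but the highest control and the lowest EED cKO array were close. Serpinb3c was at 6.29, 5.98, 5.78 and 6.08 on the control arrays and at 6.46, 6.85, 6.41 and 6.78 on the EED cKO arrays, with a log2 fold change of 0.59 ± 0.12. Serpinb3b was at 3.91, 2.95, 3.53 and 3.10 on the control arrays and at 3.95, 3.93, 3.98 and 3.39 on the EED cKO arrays, with a log2 fold change of 0.44 ± 0.14. For Serpinb3b the genotypes overlapped, with EED cKO replicate 4 below the highest control arrays. Serpinb3d had the largest difference of the 4 copies on this scale, but not with the Feature Extraction log ratio, where it was at 0.62 and Serpinb3b at 0.98. The 4 genes share sequence and the probe sequences were not examined, so signal from one copy on the probe of another was not tested.

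The reference channel moved along with the samples at some of these probes, although one reference pool served all arrays. At the Serpinb3d probe the background-subtracted signal of the sample was 39 to 90 units on control and 736.5 to 1836 on EED cKO arrays, and that of the reference was 3 to 26 on control and 54.5 to 132.5 on EED cKO arrays. The reference spot was well above background on 1 of 4 control and 4 of 4 EED cKO arrays. After normalization between arrays the reference channel at this probe was higher on EED cKO arrays by 0.96 on the log2 scale, and 21 of 23139 targets, or 0.0908%, had a reference channel difference at least as high. The same difference was 0.70 for Serpinb3a, whose reference signal was 43 to 51 on control and 68 to 105 on EED cKO arrays, and 0.40 for Serpinb3c. It was -0.083 for Serpinb3b and -0.014 for Serpinb2. The part of the reference channel in the differences was not tested.

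The size of the Serpinb3d difference moved with the processing. With the sample channel alone the log2 fold change was 3.72. With the log ratio that Feature Extraction computes after subtracting the background it was 0.62, with 4.37, 4.81, 3.51 and 5.22 on the control arrays and 4.69, 5.13, 4.96 and 5.61 on the EED cKO arrays, and the genotypes overlapped. On the control arrays those ratios rest on reference signals that were mostly not above background. For Serpinb3a the log2 fold change was 1.30 with the sample channel alone and -0.031 with the Feature Extraction log ratio, where its direction turned. The plot of both channels shows these signals, and the sample signals of both genes were higher on all EED cKO arrays than on all control arrays.

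**Figure D2:**
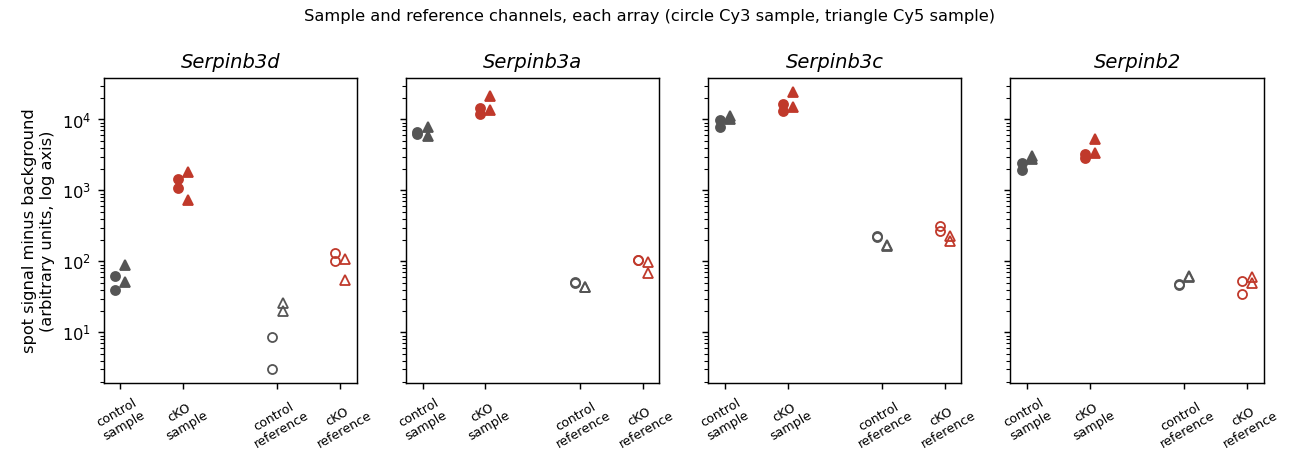
Background-subtracted spot signal in arbitrary units (y axis, log scale) of the sample channel (filled) and the reference channel (open) on the 4 control (grey) and 4 EED cKO (red) arrays for Serpinb3d, Serpinb3a, Serpinb3c and Serpinb2, with circles where the sample was in Cy3 and triangles where it was in Cy5. The reference signal at the Serpinb3d probe was 3 to 26 on control and 54.5 to 132.5 on EED cKO arrays, and at the Serpinb2 probe it was 46.5 to 61.5 and 35 to 60.

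Serpinb2 encodes plasminogen activator inhibitor 2, which inhibits urokinase and is abundant in differentiating keratinocytes. It was at 5.54, 5.34, 5.60 and 5.43 on the control arrays and at 6.21, 6.43, 6.13 and 6.08 on the EED cKO arrays, with no overlap and a log2 fold change of 0.74 ± 0.10. Serpinb2 kept this difference with the Feature Extraction log ratio and with the sample channel alone, and over 21 alternatives its log2 fold change was 0.57 to 0.78.

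Serpinb13, also called hurpin, is an inhibitor of lysosomal cysteine cathepsins in keratinocytes. It was at 0.10, 0.74, 0.34 and 0.63 on the control arrays and at 1.104, 1.75, 1.17 and 1.36 on the EED cKO arrays, with no overlap and a log2 fold change of 0.89 ± 0.10. The probe was dim, with sample signals of 14 to 33 units on control and 50.5 to 85.5 on EED cKO arrays, and its reference spot was well above background on 0 of the 8 arrays. The log2 fold change was 2.49 with the Feature Extraction log ratio, against 0.73 with the sample channel alone.

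Serpinb12 inhibits trypsin-like serine proteases. It was at 4.50, 4.33, 4.30 and 4.12 on the control arrays and at 4.60, 4.57, 4.65 and 4.86 on the EED cKO arrays, with a log2 fold change of 0.36 ± 0.10. The genotypes did not overlap, by a narrow margin, and the other probe of the gene gave 0.41. Its reference channel was higher by 0.39 on EED cKO arrays.

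The remaining 3 genes overlapped between genotypes. Serpinb5 encodes maspin, a serpin without protease inhibitor activity, and was at 5.68 to 6.30 on control and 5.79 to 6.52 on EED cKO arrays, with a log2 fold change of 0.16 ± 0.07. Its direction turned with the sample channel alone, where it was -0.22. Serpinb7, or megsin, whose loss in humans causes a palmoplantar keratosis, was at 5.34, 5.04, 6.06 and 5.10 on the control arrays and at 5.22, 6.00, 5.76 and 5.97 on the EED cKO arrays. Its log2 fold change of 0.35 ± 0.24 was the least precise of the 10, being -0.21 between samples in Cy3 and 0.92 between samples in Cy5. Serpinb8, an inhibitor of furin, had a log2 fold change of 0.28 ± 0.12. It was at -0.81 to 0.73 on control and -0.57 to 0.96 on EED cKO arrays. The ratios followed the dye, being 1.27 higher with the sample in Cy5 than in Cy3 on average, and within each dye the difference between genotypes was 0.17 and 0.40.

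**Figure D3:**
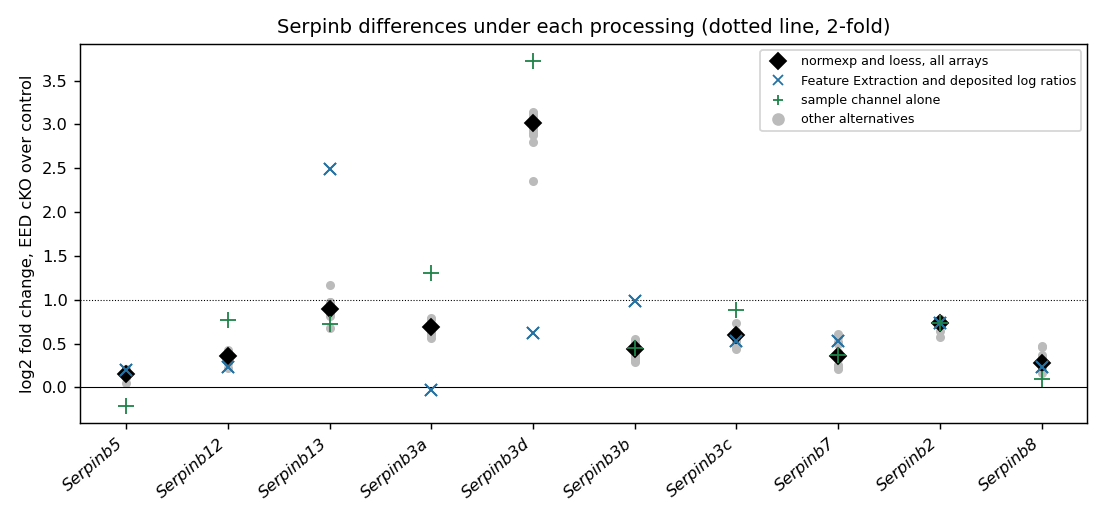
Log2 fold change of EED cKO over control (y axis) of each Serpinb gene under every processing alternative (x axis, order on chromosome 1), with a diamond for normexp background correction and loess on all arrays, a cross for the Feature Extraction and deposited log ratios, a plus for the sample channel alone, grey points for the other alternatives and a dotted line at 2-fold. Serpinb3d spans 0.62 to 3.72 and Serpinb13 spans 0.67 to 2.49, while Serpinb2 stays between 0.57 and 0.78.

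The comparison of control epidermis with the reference RNA was not used to pick the genes and was tested. The reference mixes RNA of many mouse sources, it is a single RNA, and its own spread is left out. The filter asks for signal in epidermis and not in the reference. In control epidermis 8 of the 10 genes were higher than in the reference by 2-fold or more with an adjusted p below 0.05, against 9.35% of all targets tested. By limma, log2 ratios were 6.94 ± 0.09 (SE) for Serpinb3a (adjusted p = 2.64e-12), 6.03 ± 0.09 for Serpinb3c (adjusted p = 4.68e-12), 5.98 ± 0.05 for Serpinb5 (adjusted p = 6.64e-13) and 5.48 ± 0.07 for Serpinb2 (adjusted p = 2.55e-12). Serpinb12 was at 4.31 ± 0.07 (adjusted p = 1.04e-11, limma). These 5 probes were well above background in both channels on every control array.

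For the other 3 genes the reference was dim, so that the ratio is limited by the background. Serpinb7 was at 5.38 ± 0.17 (adjusted p = 9.79e-10, limma) and Serpinb3b at 3.37 ± 0.10 (adjusted p = 5.73e-10), with the reference spot above background on 1 and 3 of 4 control arrays. Serpinb3d was at 1.11 ± 0.13 (adjusted p = 2.07e-05, limma), with the reference above background on 1 of 4 control arrays, and it fell under 2-fold without control replicate 1 (0.99) or without control replicate 2 (0.98). The Feature Extraction log ratio put Serpinb7 at 9.36, Serpinb3b at 6.38 and Serpinb3d at 4.48, values that rest on these dim reference spots. Serpinb13 was at 0.45 ± 0.07 (adjusted p = 0.000152, limma), under 2-fold. Its reference spot was not above background. With the reference set no lower than the dimmest value counted as above background on each array, control epidermis was 1.31-fold higher. The sample spot was itself not above background on control replicate 1, so this is no firm lower limit. Control sample signals were 14 to 33 units for Serpinb13 and 39 to 90 for Serpinb3d, beside the normexp offset of 50, which draws dim ratios toward 0. With the Feature Extraction log ratio Serpinb13 was at 3.27, a value that rests on the same dim reference. Serpinb8 was at -0.076 ± 0.083 (adjusted p = 0.415, limma), with reference signals of 7563 to 11455 units on the control arrays. The order of these ratios is not an order of levels, since each probe has its own response.

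The other Serpinb genes were described beside these. Of 18 listed, 17 had a probe and 11 were tested, and the median log2 fold change was 0.29. By limma, 0 were called at 2-fold, against 1.2% of all targets. At an adjusted p below 0.05, 6 were higher and 1 was lower, or 7 of the 11, against 11.8% higher and 9.93% lower of all targets. These genes are the rest of a family whose values were known when the 10 were picked. Their counts and p-values are therefore a description. Serpinb11, which inhibits trypsin-like proteases in mouse, was higher by 0.90 ± 0.12 (adjusted p = 0.00178, limma), with no overlap between genotypes, but its adjusted p was 0.158 with the Feature Extraction log ratio, where it was at 0.51. Serpinb1a, an inhibitor of neutrophil elastase and related proteases, was higher by 0.60 ± 0.15 (adjusted p = 0.0214, limma), with an adjusted p below 0.05 in 13 of 21 alternatives. Serpinb1b was lower, with a log2 fold change of -0.31 ± 0.09 (adjusted p = 0.0318, limma), also below 0.05 in 13 of 21 alternatives. The probes used for Serpinb9b, Serpinb9d, Serpinb9e, Serpinb9f and Serpinb9g were not well above background on any array, while the other probe of Serpinb9e was on 3 control and 2 EED cKO arrays.

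In chromosomal order the run on chromosome 1 was Serpinb5, Serpinb12, Serpinb13, Serpinb3a, Serpinb3d, Serpinb3b, Serpinb3c, Serpinb11, Serpinb7, Serpinb2, Serpinb10 and Serpinb8. All 12 had a log2 fold change above 0, or 11 with the Feature Extraction or deposited ratios (without Serpinb3a) or the sample channel alone (without Serpinb5), and the median was 0.52. An adjusted p below 0.05 was reached by 9 of the 12 in the higher direction, against 11.8% of all targets, and nothing is read from this count, since 10 of the 12 were picked on the same contrast. The immediate neighbours of Serpinb3d in the run, Serpinb3a and Serpinb3b, had log2 fold changes of 0.69 and 0.44. Of the 5 genes on either side of the run, 6 were tested. Bcl2, an inhibitor of apoptosis, was higher by 0.56 ± 0.07 (adjusted p = 0.00156, limma), Kdsr was at 0.031 ± 0.085, and Zcchc2, Dsel, Vps4b and Phlpp1 were lower with log2 fold changes of -0.62, -0.54, -0.35 and -0.26 (adjusted p of 0.00673, 0.0111, 0.027 and 0.046, limma). The median over these 6 genes was -0.30. On chromosome 13, where 9 of 16 Serpinb genes were tested, 7 had a log2 fold change above 0, and the median was 0.29. At an adjusted p below 0.05, 4 were higher and 1 was lower, against 11.8% and 9.93% of all targets. Members of the run were chosen partly on these values, so the contrast with the flanking genes is a description.

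**Figure D4:**
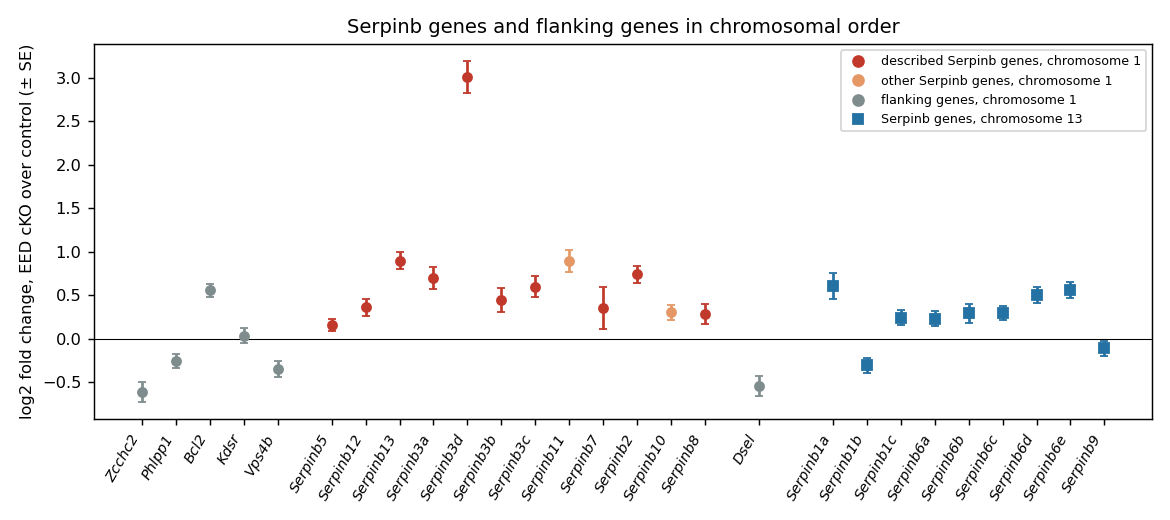
Log2 fold change of EED cKO over control with its SE (y axis) for the tested genes in chromosomal order (x axis), with the 10 described Serpinb genes in red, Serpinb11 and Serpinb10 in orange, flanking genes in grey and Serpinb genes of chromosome 13 as blue squares. All 12 genes of the run on chromosome 1 lie above 0 with the processing plotted, with Serpinb3d at 3.01 and its neighbours Serpinb3a and Serpinb3b at 0.69 and 0.44.

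Proteases that serpins can act on were taken from lists of the epidermis. Of 22 serine proteases, 21 were tested and their median log2 fold change was 0.19. At an adjusted p below 0.05, 8 were higher and 1 was lower (limma), against 11.8% and 9.93% of all targets, and 2 were called at 2-fold, against 1.2%. Those called at 2-fold were the membrane-anchored proteases Tmprss11e, higher by 1.17 ± 0.20 (adjusted p = 0.00428, limma), and Tmprss11f, higher by 1.09 ± 0.25 (adjusted p = 0.0147, limma). Neither remained at 2-fold after median centring, where they were at 0.93 and 0.90, nor without control replicate 4, where they were at 0.99 and 0.80. Tmprss11f also lost its call without control replicate 1 (0.98) and without EED cKO replicate 4 (adjusted p = 0.0515, limma), and the other probe of Tmprss11f gave 0.78. Klk7 and Klk5, kallikreins that cleave the corneodesmosomes between cornified cells, had log2 fold changes of 0.36 ± 0.10 (adjusted p = 0.0244, limma) and 0.28 ± 0.09 (adjusted p = 0.0596, limma).

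Of 7 genes of plasminogen activation, the system that Serpinb2 acts on, 5 were tested and 0 were called at 2-fold, against 1.2% of all targets. At an adjusted p below 0.05, 3 were higher (limma), against 11.8% of all targets. Serpine2, another serpin that inhibits plasminogen activators and thrombin, was higher by 0.70 ± 0.16 (adjusted p = 0.0135, limma), and Plat, the tissue-type plasminogen activator, by 0.54 ± 0.09 (adjusted p = 0.00385, limma). Plau, the urokinase that Serpinb2 inhibits, had a log2 fold change of -0.21 ± 0.10 (adjusted p = 0.138, limma). The probe used for Plg, plasminogen itself, was not well above background on any array.

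All 23 cysteine and aspartic proteases listed were tested, with a median of 0.07 and 0 called at 2-fold, against 1.2% of all targets. At an adjusted p below 0.05, 5 were higher and 1 was lower (limma), against 11.8% and 9.93% of all targets. The largest were Ctsf, a cathepsin, at 0.60 ± 0.15 (adjusted p = 0.0214, limma) and Casp1, the inflammatory caspase, at 0.57 ± 0.14 (adjusted p = 0.0171, limma). Ctsl, cathepsin L, a protease that Serpinb13 inhibits, was higher by 0.52 ± 0.08 (adjusted p = 0.00329, limma) and was named after its value was seen. The cathepsins Ctsk and Ctsb were at 0.021 ± 0.086 (adjusted p = 0.89, limma) and 0.071 ± 0.077 (adjusted p = 0.556, limma). Of 14 serine proteases of leukocytes and mast cells, 7 were tested, and 0 had an adjusted p below 0.05. Gzma was at -0.23 ± 0.11 (adjusted p = 0.18, limma) and Gzmk at 0.19 ± 0.07 (adjusted p = 0.064, limma), the largest differences of that list in either direction.

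Of 23 protease inhibitors of other families, 22 were tested, with a median of 0.23 and 3 called at 2-fold, against 1.2% of all targets. At an adjusted p below 0.05, 10 were higher and 1 was lower (limma), against 11.8% and 9.93% of all targets. Those called were the whey acidic protein domain genes Wfdc12, higher by 2.70 ± 0.14 (adjusted p = 7.44e-06, limma), Wfdc18, higher by 2.28 ± 0.17, and Slpi, the secretory leukocyte peptidase inhibitor, higher by 1.05 ± 0.15 (adjusted p = 0.00197, limma). Wfdc18 was well above background on 2 control and 4 EED cKO arrays. It passed the filter only through EED cKO, so its value, and the counts of this list that include it, are a description with no test. Limited to probes well above background on all 8 arrays, 2 of the list were called. Slpi was under 2-fold without EED cKO replicate 2 (0.90). Spink5, the inhibitor of the kallikreins Klk5 and Klk7, was higher by 0.58 ± 0.15 (adjusted p = 0.0262, limma).

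**Figure D5:**
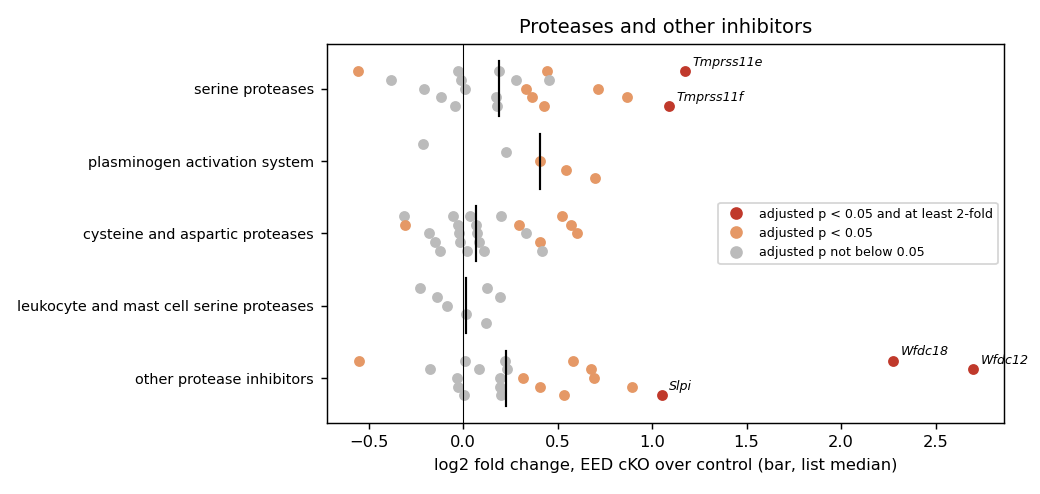
Log2 fold change of EED cKO over control (x axis) of each tested gene in 4 lists of proteases and their regulators and 1 list of other protease inhibitors (rows), with red points for genes that passed both an adjusted p of 0.05 and 2-fold, orange for an adjusted p below 0.05 only, grey for the rest and a bar at the median of the list. Medians lie between 0.02 for leukocyte and mast cell proteases and 0.40 for plasminogen activation, and the called genes are Tmprss11e, Tmprss11f, Wfdc12, Wfdc18 and Slpi. Wfdc18 passed the filter only through EED cKO, so its point is a description.

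Markers of cell states and of other cells were measured on the same arrays. Beside the counts below, 11.8% of all targets were higher and 9.93% lower at an adjusted p below 0.05, and 1.2% were called at 2-fold. Among 15 suprabasal and cornified envelope genes tested, 4 were higher at an adjusted p below 0.05 (limma), of which Sprr1a (1.56 ± 0.23), Sprr1b (1.50 ± 0.28) and Krt2 (1.00 ± 0.12) were called at 2-fold, and the list's mean ratio was 2.99 to 3.59 on control and 3.42 to 3.91 on EED cKO arrays. Krt2 was under 2-fold after median centring (0.82) and without replicate 2 or 4 of either genotype (0.91 to 0.99), and its other probe gave 3.28. Of 8 basal markers 0 were called and 3 were lower, led by Itga6 at -0.74 ± 0.12, with a list mean of 2.62 to 3.28 on control and 2.56 to 3.00 on EED cKO arrays. Of 4 stress keratins 3 were higher and 2 were called, Krt6b at 3.39 ± 0.14 and Krt6a at 2.73 ± 0.12. Krt16 was at 0.50 ± 0.11 and Krt17 at 0.080 ± 0.088, both with overlap between genotypes. The list mean was 2.62 to 3.03 on control and 4.20 to 4.78 on EED cKO arrays. But the other probe of Krt6b gave 0.73, and Krt6a was at 1.12 and not called with the Feature Extraction log ratio. All 6 Merkel cell markers were higher, with Krt20 at 1.12 ± 0.08, or 0.94 after median centring, and a list mean of -1.67 to -1.53 on control and -0.95 to -0.82 on EED cKO arrays. Sox2 was well above background on 0 control and 4 EED cKO arrays, and Atoh1 and Isl1 on 2 control and 4 EED cKO arrays. Those genes passed the filter only through EED cKO, so the count and the list mean are a description. Of 7 immune cell markers 2 were higher, with Ptprc at 0.0031 ± 0.088, and the list mean was -1.42 to -1.01 on control and -1.27 to -0.98 on EED cKO arrays. Of 6 fibroblast markers 1 was higher, with a list mean of -3.22 to -2.88 on control and -3.07 to -2.93 on EED cKO arrays. The erythroid genes Hba-a1 and Hbb-bt overlapped between genotypes, with means of 0.98 to 3.40 on control and 1.95 to 3.76 on EED cKO arrays. Their part in the Serpinb differences was not tested.

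The genes whose ratios followed Serpinb3d most closely over the 8 arrays, outside the 10, were Hoxc9, a homeobox transcription factor (Pearson r of 0.998), Rasgrf1, a Ras exchange factor (0.993), Krt12, a keratin of the cornea (0.992), Pcdh19, a protocadherin (0.99), and Lin28b, an RNA-binding protein (0.986). They share the split between genotypes with Serpinb3d, and their own log2 fold changes were 2.24, 0.77, 2.52, 0.78 and 0.64. Within genotypes, with group means removed, the correlations over the same 8 arrays were 0.94, 0.85, 0.88, 0.82 and 0.72. Serpinb3d varied more among control (SD 0.48) than among EED cKO arrays (SD 0.11). The genes were picked by correlation on these same arrays, so the values within genotypes are no separate support. All are given as a description of 8 arrays that share 1 slide.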

How the data were processed

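RNA of 4 EED cKO and 4 control newborn epidermis samples was measured on 2-colour Agilent mouse arrays, grouped by the sample labels. The authors deposited for each array the spot and background intensity of both channels from Agilent Feature Extraction 12.0.1.1, not normalized, the software's own log10 ratio of the dyes (background-subtracted and dye-normalized), and a log2 table in which sample is set over reference on every array. The 10 genes and the lists were chosen with earlier results of these data known.

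Median spot intensity was background-corrected (normexp, offset 50), each array was normalized by loess with control and outlier spots at weight 0, and ratios were turned to sample over reference. Normexp draws the ratios of dim spots toward 0. Spots were averaged per probe, and the probe with the highest mean signal stood for its gene. RefSeq accessions named 29796 probes, of which 28026 matched the GRCm38.p6 table. The array design is annotated on an older build, so its coordinates were not used. Of 36799 targets, 23139 were tested, those whose sample signal was well above background on 3 or more of the 4 arrays of either genotype. Group means replaced 19 missing values. Genotype and dye were fitted in R 4.3.3 with limma 3.58.1 (lmFit, eBayes), with Benjamini-Hochberg adjustment over all targets. A gene was called when it changed 2-fold or more with an adjusted p below 0.05. The number of arrays limits the precision, and p-values measure the spread between these samples. The labels call the samples biological replicates.

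Genes named are the 10, the called genes of each list (at most 5) or the 2 largest differences where none was called, Eed, and the 5 genes most correlated with Serpinb3d. Others, among them flanking genes, were named after their values were seen. Same-numbered arrays of the genotypes deviated together, with correlations of 0.49, 0.68, 0.33 and 0.36, and 0.13 and 0.46 with the dye removed, so the number was treated as a pair in an alternative fit. What the number stands for is not in the labels, and it also marks the dye and the slide column. Other alternatives changed the background correction, normalization, filter, choice of probe, channel and test, or left out arrays.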

Additional observations from a re-analysis of the deposited data

Results flagged for a closer look

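Among the groups of 4 arrays checked for a single array far from the other 3, 6 stood out of 84, and chance gives about 1 in 20. Serpinb3b on EED cKO replicate 4 was at 3.39, below the other EED cKO arrays at 3.93 to 3.98. Serpinb1a on EED cKO replicate 1 was at -0.20, below 0.19 to 0.26 on the others. Serpinb1b on control replicate 4 was at 2.25, above 1.97 to 1.98 on the others. Slpi on control replicate 1 was at -3.92, above the other control arrays at -4.31 to -4.29. Itga6 on EED cKO replicate 4 was at 0.46, below 0.68 to 0.70 on the others. Hbb-bt on EED cKO replicate 1 was at 2.04, below 3.68 to 4.00 on the others.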

How the results depend on the processing

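The alternatives draw on the same 8 arrays, and the 10 genes were picked on EED cKO against control. Their counts for that contrast are therefore a description, and nothing is read from them. Serpinb3d was called at 2-fold in 19 of 21 alternatives and was at 0.62 and not called with the Feature Extraction and with the deposited log ratios. Serpinb3a was at -0.031 with both, and Serpinb5 at -0.22 with the sample channel alone. Of the 10 genes, 2 were called without background correction and 2 with the sample channel alone, in place of 1, and 4 in place of 7 had an adjusted p below 0.05 with the Feature Extraction and 4 with the deposited ratios. Over all targets, 357, 296, 699 and 698 were called in these 4 settings, in place of 278. With both control arrays that carry Y-linked RNA left out, an alternative chosen after seeing the data, 1 of the 10 genes was called and 5 had an adjusted p below 0.05, while 333 of all targets were called. Leaving out 1 array at a time gave 1 gene called each time, 5 to 7 with an adjusted p below 0.05, and 7 to 8 in place of 8 higher in control than in the reference. That last count was 9 with the Feature Extraction and 9 with the deposited ratios. Serpinb8 against the reference, at -0.076 with all arrays, ranged from -0.16 without control replicate 3 to 0.037 without control replicate 4 when single arrays were left out, and was at -0.26 without both control arrays with Y-linked RNA.

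With the Feature Extraction log ratio 699 targets were called in place of 278, with the deposited ratios 698, with the methods' t-test 175 after Benjamini-Hochberg adjustment (275 before it), and without single arrays 255 to 317. Other Serpinb genes called were 1 with the sample channel alone (Serpinb11) and 0 to 1 without single arrays (Serpinb11 without control replicate 3), in place of 0. Serine proteases called were 1 with the Feature Extraction ratio, the deposited ratios or the median over probes, 0 after median centring, 4 with the sample channel alone and 0 to 3 without single arrays, in place of 2. Plasminogen activation had 1 call with the Feature Extraction and deposited ratios in place of 0, and other inhibitors had 5 with the sample channel alone and 2 to 4 without single arrays in place of 3. Hbb-bt turned to -0.27 with the Feature Extraction and deposited ratios. The causes were not tested. With the replicate block 279 targets were called in place of 278, and 1 of the 10 genes was called as without it. Dim reference spots limit the ratios of Serpinb3b, Serpinb3d, Serpinb7 and Serpinb13.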
